A study of Sus scrofa with 12 samples.

Results

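Smooth muscle cells from porcine (Sus scrofa) coronary artery were treated with PDGF-BB for 4 h and compared with control cells by RNA sequencing. PDGF-BB was given at 30 ng/ml and control cells received no PDGF-BB, with 3 libraries in each of these groups. The 3 libraries of one group carry the numbers 1 to 3, and each PDGF-BB library was paired with the control library of the same number. A gene entered the comparison when at least 3 of these 6 libraries held 10 or more of its reads, which 12173 of the 21153 genes in the deposited table did. Another 4882 genes had no read in any of the 6. The series holds 12 libraries in 4 groups. The other 6, from cells given S100A4 at 1 µg/ml alone or with PDGF-BB at 30 ng/ml, serve here as a second set in which the effect of PDGF-BB was measured.

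All groups shared the same culture. The cells were primary cultures at passages 6 to 11, labelled as differentiated or contractile, and were plated 24 h before treatment at 60 cells per mm2 in dishes of 35 mm. Their medium held 10% fetal calf serum, so control cells were fed with serum growth factors and were not quiescent by design. The study names 3 animals, but the labels tie no library to an animal, so the tests below speak only for the spread among these libraries. Fewer expressing cells and less RNA per cell cannot be told apart in bulk samples.

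PDGF-BB is a growth factor made of a pair of B chains, which platelets, endothelial cells and macrophages release in injured arteries. It binds the receptor tyrosine kinases PDGFRA and PDGFRB, which signal through the RAS, RAF, MEK and ERK kinases and through PI3-kinase and AKT. ERK activity induces immediate early genes and, with them, the phosphatases and adaptors that switch it off again, while AKT phosphorylates FOXO transcription factors and keeps them out of the nucleus. In arterial smooth muscle the factor is known for driving division and migration and for lowering contractile genes.

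The libraries held 21455021 to 32448438 reads in genes, and the PDGF-BB library was the deeper one in each pair. Levels are given in CPM (reads scaled to a common library size and composition). Before the scaling for composition 1 CPM stood for 21.5 to 32.4 reads. After the group mean was taken off, control and PDGF-BB libraries with the same number correlated at r = 0.793 to 0.902 across genes. Those with different numbers lay at −0.673 to 0.117, values that taking off a mean of 3 libraries itself pushes down. From the correlations of same-numbered libraries, the numbers were taken as pairing the libraries. Smooth muscle markers were present in every library: ACTA2, smooth muscle alpha-actin, read 15205, 7629.8 and 17439 CPM in the control libraries, and MYH11, smooth muscle myosin, 1208, 439 and 1811 CPM. Replicate 2 stood apart in both groups. Its summed CPM of 9 smooth muscle markers was 9423 in control and 8176 with PDGF-BB, against 18950 to 22640 in the other 4 libraries. The 7 fibroblast markers tested summed to 1414, 1798 and 1033 CPM in control and 1240, 1575 and 1033 with PDGF-BB. Of these, the receptor PDGFRA read 30.8, 133 and 8.29 CPM in control, while COL14A1 was lowest in replicate 2 (928, 609 and 762.5 CPM). The 5 pericyte markers tested summed to 1174, 336 and 1544 CPM in control and 1689, 441.3 and 1976 with PDGF-BB. The largest term was CSPG4 (666, 221 and 854 CPM in control, 1257, 351 and 1391 CPM with PDGF-BB), the 1 member called higher (0.76 ± 0.05). Of the others 2 were called lower (1 without replicate 1 or replicate 3), and the median of the 5 was −0.03. Summed CPM of the 4 endothelial markers tested was 55.6, 126 and 76.9 in control and 121, 203 and 148 with PDGF-BB. Its largest term with PDGF-BB was the transcription factor ERG (36.0, 73.2 and 42.7 CPM in control, 102, 143 and 112 CPM with PDGF-BB), which rose (1.27 ± 0.09). EMCN also passed as higher (1.02 ± 0.33) at 0, 0.815 and 0.424 CPM in control and 0, 1.90 and 0.617 CPM with PDGF-BB, but not without replicate 1 or replicate 2 (adjusted p = 0.062 and 0.58), and PECAM1 (0.20 ± 0.08) and CDH5 (0.02 ± 0.06) did not pass. All 4 T cell markers were at 0, no epithelial or Schwann cell marker reached the count minimum, and 3 macrophage markers summed to 7.08 to 11.2 CPM. The part of these other cells in the results was not tested.

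PDGF-BB changed the transcript level of 6021 of the 12173 genes, 49.5%, by edgeR's quasi-likelihood test with replicate number as a block and a Benjamini-Hochberg adjusted p under 0.05. Of these, 3118 were higher (25.6% of genes tested) and 2903 lower (23.8%). Most changes were small. The median called gene moved 1.28-fold, 74.8% of called genes moved less than 1.5-fold, and 486 genes (3.99%) changed by 2-fold or more, 295 higher (2.42%) and 191 lower (1.57%). A rise of 4-fold or more was called for 47 genes and a fall of that size for 14, and for 8-fold the counts were 15 and 3. In the fit without the pairing 1056 genes passed (8.67%), 706 higher (5.8%) and 350 lower (2.88%), and all 1056 also passed with it, in the same direction. All 3 pairs had the same sign in 5962 of the 6021 called genes and in 8514 of all tested (69.9%). A pair with no reads, such as pair 1 of EMCN, could count there as having a sign. Both groups were free of overlap in 3277 called genes and 3712 tested (30.5%). The common biological coefficient of variation was 4.67% with the pairing and 26.6% without. Genes called higher together took 32.3% of CPM in control and 40.1% with PDGF-BB, and those called lower 31.8% and 25.7%. With upper-quartile scaling 6217 genes passed, of which 39.7% were higher in place of 51.8%. In edgeR with RLE scaling, the size-factor method of DESeq2, 48.5% were higher. By DESeq2 itself 4004 genes passed, 51.7% of them higher. The split of small changes thus depends on the processing. The gene lists below were chosen with earlier results of these data known. Their counts stand against the shares over all genes tested, 25.6% higher and 23.8% lower. Below, each change is a log2 ratio of PDGF-BB to control ± SE of the paired fit. That SE draws on all genes and is not the spread of the 3 pairs. A gene "rose" or "fell" only where it passed with the pairing.

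**Figure D1:**
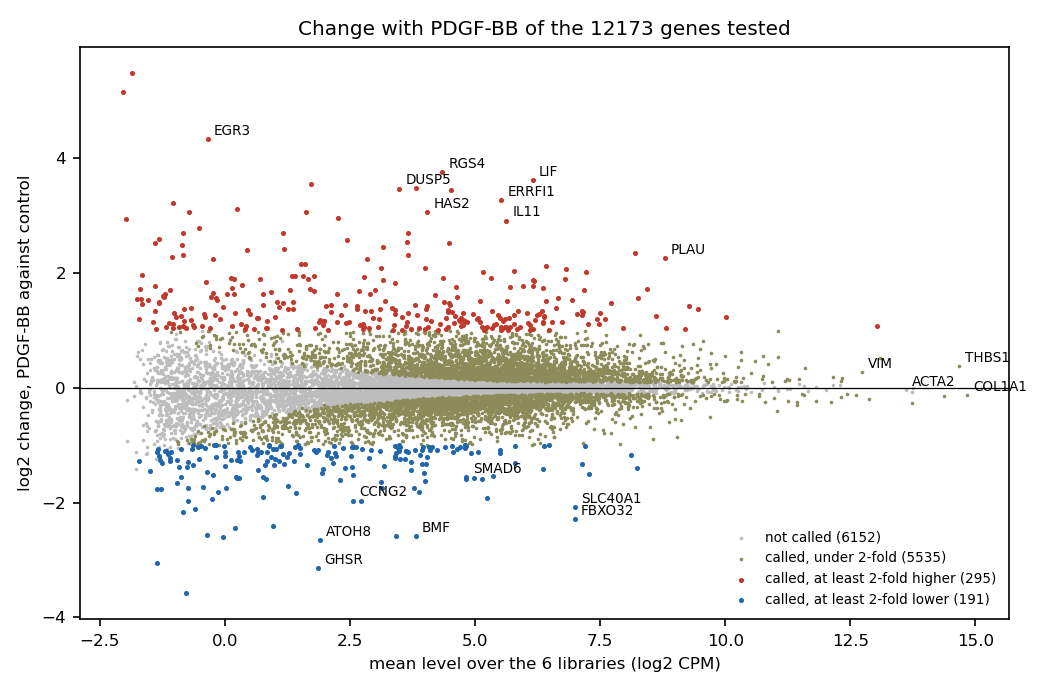
Each point is 1 of the 12173 genes tested, with its mean level over the 6 libraries (log2 CPM, x axis) against its log2 change with PDGF-BB (y axis); red and blue points passed the test with a change of 2-fold or more, olive points passed with a smaller change and grey points did not pass. The 295 red points reach farther from 0 than the 191 blue ones, and abundant genes such as COL1A1 and ACTA2 lie near 0.

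The gene with the largest rise among those with a symbol and a mean of at least 1 log2 CPM was RGS4 (ENSSSCG00000006335, chr4:87383336-87390478 in Sscrofa11.1), a GTPase activator that ends G-protein signalling. It read 5.67, 5.50 and 5.23 CPM in the 3 control libraries and 67.8, 68.8 and 89.0 CPM with PDGF-BB. The groups lay far apart and the control libraries differed little, for a 13.5-fold rise (3.76 ± 0.09, adjusted p = 2.6e-09). LIF (ENSSSCG00000040961, chr14:47221540-47239513), a cytokine of the IL6 family, followed with 21.2, 36.6 and 10.7 CPM in control and 200.4, 503 and 154 CPM with PDGF-BB. Its replicate 2 was the highest library of either group, and each pair rose (3.61 ± 0.09, adjusted p = 3.1e-09). GHSR (ENSSSCG00000020906, chr13:110981465-111006149), the ghrelin receptor, had the largest fall by the same criteria, from 12.6, 8.49 and 11.4 CPM to 1.39, 0.721 and 1.59 CPM (−3.14 ± 0.15, adjusted p = 1.6e-07). All PDGF-BB libraries lay below all control libraries for this receptor. ATOH8 (ENSSSCG00000008230, chr3:58964541-59001620), a basic helix-loop-helix transcription factor, went from 11.5, 9.07 and 7.26 CPM to 1.63, 1.61 and 1.14 CPM, 6.29-fold lower (−2.65 ± 0.13, adjusted p = 1.9e-07). All 4 genes also passed without the pairing (adjusted p = 0.0022 to 0.028).

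The highest median of all lists was that of the MAP kinase phosphatases, which feed back on ERK and its relatives. Of 9 tested dual-specificity phosphatases that act on MAP kinases, 8 rose and none fell, with a median of 1.27 against −0.01 over all genes tested. DUSP5 (ENSSSCG00000040815, chr14:120906340-120919398), a nuclear phosphatase of ERK, read 1.74, 5.09 and 3.91 CPM in control and 25.6, 53.7 and 38.5 CPM with PDGF-BB (3.47 ± 0.10, adjusted p = 4.9e-09). DUSP6, its cytoplasmic counterpart, went from 10.1, 20.5 and 10.9 CPM to 37.3, 53.5 and 47.2 CPM (1.75 ± 0.11, adjusted p = 9.7e-07). For both genes the lowest PDGF-BB library lay above the highest control library. DUSP4 rose by 1.31 ± 0.13 and DUSP2 by 2.48 ± 0.38, both from under 3 CPM, and DUSP2 by 3.28 without replicate 2. DUSP1, which also acts on p38 and JNK, rose less, from 115, 87.8 and 126 CPM to 189, 114 and 189.8 CPM (0.56 ± 0.06), and its groups overlapped. Without the pairing DUSP2, DUSP4, DUSP5 and DUSP6 still passed, whereas DUSP1 (adjusted p = 0.20), DUSP8, DUSP10 and DUSP14 did not. DUSP8 also lost its call when any 1 replicate was left out (adjusted p = 0.080 to 0.16). DUSP16 passed in neither fit.

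Adaptors that restrain receptor tyrosine kinases and RAS moved with them. In a list of 17 such genes 14 rose, 1 fell and the median was 0.90. ERRFI1 (ENSSSCG00000035774, chr6:68667651-68682629), which binds and inhibits EGF receptor kinases, rose 9.68-fold, from 13.9, 13.9 and 16.8 CPM to 144, 109 and 187 CPM (3.27 ± 0.08, adjusted p = 3.1e-09). SPRY2, a Sprouty protein that blocks RAS activation, went from 14.9, 17.9 and 20.4 CPM to 71.8, 59.6 and 87.4 CPM (2.02 ± 0.09), and its relatives SPRY4 (1.51 ± 0.12), SPRED1 (1.17 ± 0.05) and SPRY1 (1.16 ± 0.09) rose less. SH2B3, an adaptor that damps cytokine and PDGF receptor signals, rose from 35.7, 40.2 and 37.4 CPM to 137, 129 and 147 CPM with little spread between libraries (1.86 ± 0.06). LRIG3 was the member that fell (−1.11 ± 0.10), and LRIG1 (0.04 ± 0.07) did not pass. In the fit without pairing 10 of the 17 passed as higher, among them every riser named here, and LRIG3 as lower.

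Immediate early transcription factors rose in 21 of 26 tested genes and fell in 3, with a median of 0.73. At 4 h the EGR family led the group. EGR3 (ENSSSCG00000009630, chr14:6943184-6948507) had 4, 6 and 1 reads in the control libraries and 74, 91 and 95 in the PDGF-BB libraries (4.34 ± 0.31, adjusted p = 1.9e-06), so its control level rests on few reads. EGR2 went from 0.486, 1.94 and 0.707 CPM to 9.19, 19.4 and 8.31 CPM (3.56 ± 0.16), and EGR1 (ENSSSCG00000014336), the most abundant of the 3, from 69.0, 104 and 54.8 CPM to 327, 279 and 296 CPM (2.01 ± 0.15, adjusted p = 2.2e-06). None of these 3 genes overlapped between groups. Their corepressors split: NAB2 rose (1.14 ± 0.07) and NAB1 fell (−0.34 ± 0.05). FOSL1, a late-induced FOS relative, rose from 86.1, 107 and 66.1 CPM to 208, 239 and 175 CPM (1.28 ± 0.05), while FOSL2 fell from 788, 703 and 649 CPM to 416, 372 and 386 CPM (−0.86 ± 0.04). FOS itself was close to control at this time, with 60.7, 77.6 and 33.6 CPM and then 50.1, 58.8 and 34.6 CPM (−0.23 ± 0.07, adjusted p = 0.023), and that small fall did not pass without replicate 1 (adjusted p = 0.18) or replicate 2 (0.080). MYC, which drives growth and ribosome genes, rose 2.39-fold, from 58.4, 53.5 and 49.4 CPM to 137, 122 and 126 CPM (1.26 ± 0.05, adjusted p = 2.9e-08). The serum response factor SRF rose from 111, 111 and 125 CPM to 172, 151 and 183 CPM (0.54 ± 0.04). The small MAF protein MAFF (1.76 ± 0.05), IER2 (1.47 ± 0.09) and the nuclear receptor NR4A3 (1.93 ± 0.10) rose as well. Without the pairing 13 members passed as higher and FOSL2 as lower. NR4A3 (adjusted p = 0.063), NAB1 (0.072) and FOS (0.73) were among those that did not.

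Krüppel-like factors, zinc finger regulators of growth and differentiation, had no common direction: 5 of 13 rose and 5 fell. KLF2 rose from 8.22, 8.76 and 7.44 CPM to 16.5, 15.6 and 17.1 CPM (1.00 ± 0.09) and KLF10 by 0.78 ± 0.05. KLF9 fell from 30.7, 21.2 and 25.9 CPM to 10.7, 10.3 and 9.71 CPM (−1.32 ± 0.09) and so did KLF15 (−1.32 ± 0.22). KLF4, a repressor of contractile genes in smooth muscle, was lower in each pair, 117, 75.4 and 114 CPM against 90.4, 55.8 and 87.4 CPM (−0.39 ± 0.04, adjusted p = 2.4e-05). Its groups overlapped, and it did not pass without the pairing (adjusted p = 0.42), unlike KLF2, KLF9, KLF10 and KLF15.

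Of the EGF receptor and its family of ligands and receptors, 5 of 9 tested genes rose and 2 fell (1 fell without replicate 1). HBEGF, a membrane-bound ligand shed by ADAM proteases, went from 4.21, 7.78 and 5.70 CPM to 19.3, 47.2 and 22.2 CPM (2.31 ± 0.11, adjusted p = 1.6e-07). AREG, amphiregulin, rose about as much in each pair, from 39.7, 136 and 30.5 CPM to 157, 539 and 146 CPM (2.06 ± 0.06, adjusted p = 3.8e-09). Both ligands were highest in replicate 2, and AREG did not pass without the pairing (adjusted p = 0.19). EREG, epiregulin, read 0.162, 5.43 and 0.188 CPM in control and 0.490, 18.5 and 0.422 CPM with PDGF-BB (1.73 ± 0.16), and it did not pass without replicate 2 (adjusted p = 0.077). The receptor EGFR rose slightly (0.31 ± 0.05) and ERBB2 fell (−0.52 ± 0.05), each passing only with the pairing.

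Other secreted growth factors rose in 9 of 17 tested genes and fell in 3 (1 without replicate 1). The angiogenic factor VEGFA read 186, 180.0 and 213 CPM in control and 558, 901 and 499 CPM with PDGF-BB (1.71 ± 0.15, adjusted p = 7.7e-06). VEGFC, its lymphatic relative, rose from 27.1, 65.5 and 31.8 CPM to 115, 165 and 125 CPM (1.77 ± 0.12). GDF15, a stress-induced TGF-beta family member, moved almost equally in the 3 pairs, by 1.22, 1.23 and 1.18 on the log2 scale. BDNF, a neurotrophin, fell from 13.2, 17.9 and 17.0 CPM to 5.39, 7.60 and 8.25 CPM (−1.18 ± 0.09). These 4 genes passed with and without the pairing.

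Among IL6-family cytokines and receptors 6 of 10 rose and 1 fell (2 without replicate 2). After LIF the largest rise was that of IL11, which read 12.4, 48.1 and 9.28 CPM in control and 96.7, 337 and 77.2 CPM with PDGF-BB. The pairs rose by 2.95, 2.81 and 3.05 on the log2 scale (2.91 ± 0.06, adjusted p = 9.6e-10), but replicate 2 stood far above the others in both groups, and IL11 did not pass without the pairing (adjusted p = 0.11). The receptor chains LIFR (1.15 ± 0.08) and OSMR (0.85 ± 0.09) rose, IL6R fell (−0.94 ± 0.13), and all 3 passed both ways. Several chemokines had large rises. CCL2, a monocyte attractant, went from 314, 743 and 232 CPM to 763, 1922 and 722 CPM (1.43 ± 0.06), CXCL8 from 1.18, 29.9 and 2.17 CPM to 13.6, 155 and 23.0 CPM (2.69 ± 0.16), and the porcine neutrophil attractant AMCF-II from 0.972, 6.79 and 0.754 CPM to 5.31, 54.5 and 7.21 CPM (2.96 ± 0.12). In all 3 the control library of replicate 2 was the highest of the controls, and it lay above at least 1 PDGF-BB library of another number. Without replicate 2 CXCL8 rose by 3.44. Of 7 chemokines tested 4 rose and 1 fell, and none passed without the pairing (adjusted p = 0.22 to 0.38 for these 3). CXCL8, CXCL2 and AMCF-II are near relatives, and reads could be split between them by the authors' counting.

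NF-kB subunits, inhibitors and targets rose in 14 of 20 tested genes and fell in 3, all by less than 2-fold, with a median of 0.43. ICAM1, a leukocyte adhesion molecule, had the largest change, from 146, 169 and 119 CPM to 272, 291 and 254 CPM (0.92 ± 0.05), and RELB, a subunit of the alternative pathway, rose by 0.76 ± 0.07. Both passed without the pairing as well, as 5 members of the list did. The inhibitor NFKBIA was slightly lower (−0.20 ± 0.05), a call that was lost without replicate 1 (adjusted p = 0.056).

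**Figure D2:**
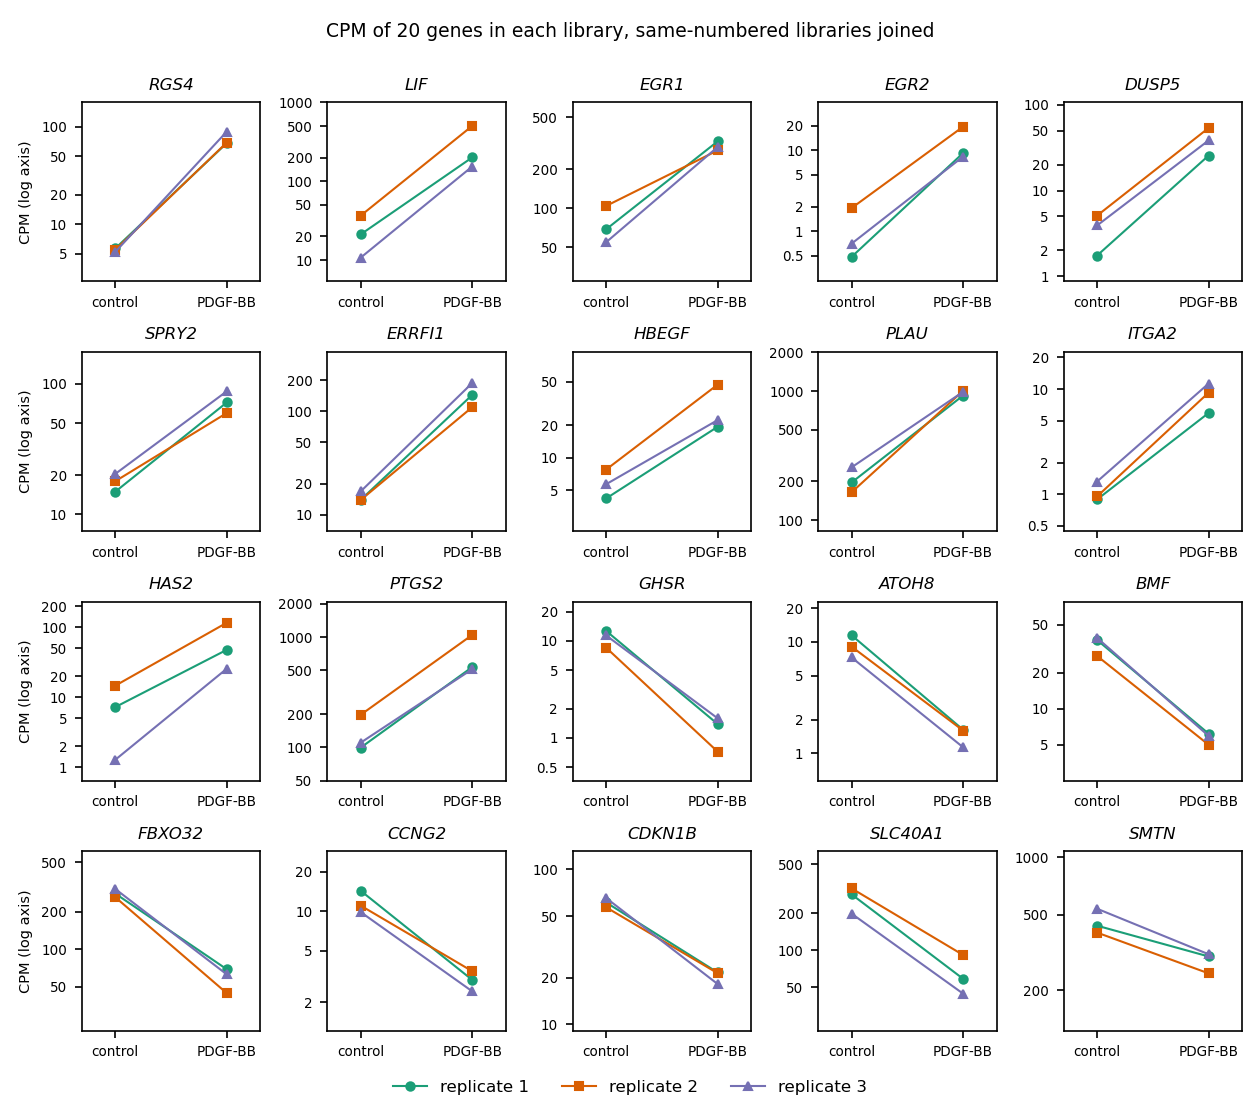
CPM (log axis) of 20 genes in the 3 control and 3 PDGF-BB libraries, with libraries of the same number joined by a line and marked by colour and symbol. Every line rises in the 12 panels from RGS4 to PTGS2 and falls in the 8 panels from GHSR to SMTN, and replicate 2 (orange) starts from a higher level for LIF, HAS2 and PTGS2.

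The plasminogen activator system, which cuts fibrin and matrix around migrating cells, rose in 7 of 9 tested genes and fell in 1, with a median of 1.03. PLAU (ENSSSCG00000010312, chr14:76629313-76635173), urokinase, went from 196, 164 and 256 CPM to 923, 1004 and 987 CPM. The PDGF-BB libraries lay closer together than the controls, with no overlap (2.26 ± 0.10, adjusted p = 6.9e-08). Its receptor PLAUR rose from 126, 118 and 137 CPM to 378, 325 and 357 CPM (1.48 ± 0.04). SERPINE2, a serpin that inhibits urokinase and thrombin, rose from 378, 454 and 398 CPM to 756, 921 and 831 CPM (1.03 ± 0.03), without overlap. PLAT, tissue plasminogen activator, was the member that fell (−0.32 ± 0.05). PLAU, PLAUR and SERPINE2 passed without the pairing, and PLAT did not (adjusted p = 0.42).

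Metalloproteinases and their inhibitors moved both ways, with 8 of 28 higher and 11 lower, and 7 lower without replicate 1. These are 28.6% and 39.3%, against 25.6% and 23.8% of all genes tested. The aggrecanase ADAMTS4 rose from 27.2, 30.1 and 31.4 CPM to 85.2, 77.2 and 90.6 CPM (1.51 ± 0.06). A second aggrecanase, ADAMTS5, fell from 5.23, 11.7 and 5.09 CPM to 2.37, 3.51 and 2.76 CPM (−1.32 ± 0.16), as did ADAMTS15 (−1.57 ± 0.22) from about 2 CPM. TIMP1, an inhibitor of matrix proteases, rose in each pair (0.61 ± 0.04). Of these, ADAMTS4 passed without the pairing (adjusted p = 0.0057).

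Receptors and ligands of cell adhesion included one of the larger rises. ITGA2, the alpha chain of a collagen receptor, went from 0.891, 0.951 and 1.32 CPM to 5.92, 9.24 and 11.3 CPM, 8.35-fold higher (3.06 ± 0.15, adjusted p = 1.8e-07). ITGB3, the beta chain of the vitronectin receptor, rose from 49.0, 143 and 53.7 CPM to 140.1, 349 and 189 CPM (1.53 ± 0.08), and ITGA5, which binds fibronectin, by 0.55 ± 0.03. Overall 8 of 16 integrin subunits rose and 3 fell, and without the pairing 2 passed, ITGA2 and ITGA3 (0.68 ± 0.06). For hyaluronan, a matrix sugar that swells around dividing cells, 7 of 8 genes rose and none fell. The synthase HAS2 read 7.21, 14.6 and 1.27 CPM in control and 47.6, 116 and 25.5 CPM with PDGF-BB. Its groups did not overlap but its paired changes were unequal, at 2.71, 2.98 and 4.25 (3.06 ± 0.15, adjusted p = 1.8e-07, 0.11 without the pairing). CEMIP, which takes part in hyaluronan breakdown, rose as well (1.87 ± 0.05), as did the receptor CD44 (0.53 ± 0.04). Without the pairing CD44 was the 1 member that passed, and CEMIP did not (adjusted p = 0.053).

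PTGS2, the inducible cyclooxygenase COX-2, went from 99.7, 198 and 111 CPM to 535, 1046 and 512 CPM, 5.09-fold higher (2.35 ± 0.05, adjusted p = 9.6e-10). It passed without the pairing too (adjusted p = 0.025). The other 11 tested genes of prostaglandin synthesis and reception gave 4 higher and 4 lower. Of the prostanoid synthases, PTGIS fell (−0.32 ± 0.04) and PTGES (0.02 ± 0.07) did not pass. The prostacyclin receptor PTGIR rose (1.39 ± 0.27). The calls of PTGIS and PTGIR needed the pairing, and without replicate 1 the list had 2 lower genes.

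FOXO factors and genes known as their targets had the lowest median of all lists. Of 29 tested, 23 fell, 11 of them by 2-fold or more, 2 rose, and the median was −0.73. BMF (ENSSSCG00000035284, chr1:131178021-131199668), a BH3-only protein that promotes apoptosis, went from 37.4, 27.5 and 38.9 CPM to 6.21, 5.01 and 5.94 CPM, 6.02-fold lower (−2.59 ± 0.08, adjusted p = 6.9e-09). FBXO32 (ENSSSCG00000005981, chr4:15895875-15925929), the ubiquitin ligase atrogin-1 of muscle atrophy, went from 279, 261 and 304 CPM to 68.9, 44.3 and 62.6 CPM (−2.28 ± 0.08, adjusted p = 2.2e-08). For both, every PDGF-BB library lay below every control library. A second ubiquitin ligase of atrophy, TRIM63 (MuRF1), fell from 8.22, 8.59 and 8.62 CPM to 2.65, 2.69 and 2.99 CPM (−1.61 ± 0.12). CCNG2, a cyclin linked to cell cycle exit, fell from 14.3, 11.0 and 9.85 CPM to 2.98, 3.47 and 2.44 CPM (−1.97 ± 0.13). CDKN1B, the CDK inhibitor p27, fell from 61.2, 57.0 and 65.4 CPM to 21.6, 21.4 and 18.2 CPM, 3.00-fold lower (−1.59 ± 0.08, adjusted p = 1.7e-07). Both genes are known to act against division. KLHL24 (−1.82 ± 0.08), the PI3-kinase inhibitor PIK3IP1 (−1.59 ± 0.11), the MYC antagonist MXI1 (−1.39 ± 0.11) and the stress protein SESN1 (−1.37 ± 0.13) fell too. The receptor and adaptor of insulin, INSR (−0.84 ± 0.10) and IRS2 (−0.83 ± 0.12), and the factors FOXO3 (−0.74 ± 0.09), FOXO4 (−0.73 ± 0.07) and FOXO1 (−0.41 ± 0.06) fell by less. TRIB1 rose by 1.01 ± 0.07 and TRIB2 by 0.61 ± 0.06. CITED2 (0.03 ± 0.06) did not pass, and TXNIP (−0.32 ± 0.14) passed only without replicate 2 or replicate 3 (adjusted p = 7.2e-05 and 0.015). Without the pairing 13 members passed as lower and TRIB1 as higher. FOXO1, FOXO4 and IRS2 were among those that did not (adjusted p = 0.068 to 0.19).

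**Figure D3:**
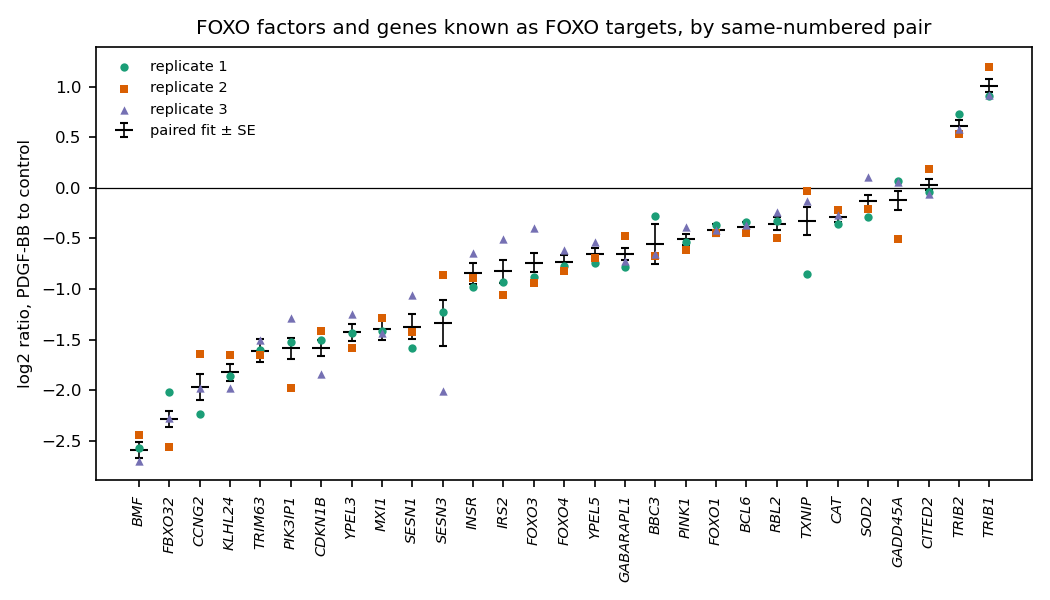
Log2 ratio of PDGF-BB to control (y axis) for the 29 tested FOXO factors and known FOXO targets, ordered by the paired fit; coloured symbols are the 3 same-numbered pairs and the black bar is the fit ± SE. All 3 pairs lie below 0 for 24 genes, the 23 that fell and TXNIP, and above 0 for TRIB2 and TRIB1.

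Of the BCL2 family itself, 2 of 11 tested members rose and 3 fell (18.2% and 27.3%, against 25.6% and 23.8% of all genes tested). MCL1, which protects cells from apoptosis, rose from 367, 319 and 389.7 CPM to 544, 511 and 599.6 CPM (0.62 ± 0.04), and the pro-apoptotic BAK1 also rose (0.61 ± 0.05). BMF and BOK (−0.57 ± 0.06), another pro-apoptotic member, fell. The third that fell, BBC3, changed by −0.55 ± 0.20 from under 2 CPM, and its call was lost when any 1 replicate was left out (adjusted p = 0.069 to 0.14).

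Genes that make ribosomes rose almost without exception: 45 of 46 tested passed as higher and none as lower, with a median of 0.74. Changes lay between 0.24 and 1.32, and 8 reached 2-fold. RRS1, an assembly factor of the large subunit, had the largest, from 12.6, 14.6 and 14.2 CPM to 33.3, 35.3 and 35.0 CPM (1.32 ± 0.06, adjusted p = 1.6e-07). DDX21, a nucleolar RNA helicase, went from 115, 147 and 120.4 CPM to 270.4, 316 and 293 CPM (1.20 ± 0.04). PPAN (1.25 ± 0.06), NIP7 (1.22 ± 0.08) and the methyltransferase NOP2 (1.15 ± 0.06) rose about as much. RRN3, which loads RNA polymerase I on ribosomal DNA, rose from 34.3, 35.4 and 33.9 CPM to 58.8, 54.4 and 61.2 CPM (0.75 ± 0.06), and the polymerase subunit POLR1B by 0.60 ± 0.04. The abundant nucleolar proteins NCL (0.67 ± 0.03) and NPM1 (0.57 ± 0.03) rose somewhat less. NOP56, read at under 1 CPM in each library, was the member that did not pass (0.56 ± 0.38, and 1.21 without replicate 2, adjusted p = 0.050), a level that makes its counting uncertain. Without the pairing 34 of the 46 passed, all higher.

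Ribosomal proteins moved in the same direction by far less. Of 32 tested cytosolic ones 26 rose, none fell, and the median was 0.14. RPL3 had one of the larger changes, from 302, 321 and 255 CPM to 369, 376 and 322 CPM (0.28 ± 0.04, adjusted p = 1.1e-04). None of the 26 passed without the pairing, and 12 passed with upper-quartile scaling, 13 by DESeq2 and 8 without replicate 1, so these small rises depend on the scaling and on the pairs. Many ribosomal protein genes have near-identical copies, among which reads may be split. Mitochondrial ribosomal proteins gave 29 of 61 higher and none lower (median 0.18, 15 higher without replicate 1).

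Translation factors rose in 25 of 33 tested genes and fell in 2 (0 without replicate 1), with a median of 0.25. EIF4A1, the helicase of the cap-binding complex, had the largest rise, from 529, 687 and 499 CPM to 975, 1092 and 918 CPM (0.81 ± 0.05), and the cap-binding protein EIF4E rose by 0.51 ± 0.04. EEF1E1, a scaffold of the tRNA synthetase complex, went from 17.8, 19.2 and 18.9 CPM to 31.4, 33.6 and 29.5 CPM (0.76 ± 0.06). All 3 passed without the pairing, as 7 of the list did.

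Chaperones of new proteins rose as a complete list, with 17 of 17 tested members of the TCP1 ring and heat shock families higher. HSPA8, the constitutive HSP70, had the largest rise, from 1455, 1682 and 1420.4 CPM to 3054, 2971 and 3028 CPM (0.99 ± 0.05, adjusted p = 2.0e-07). Its 3 PDGF-BB libraries lay close together and above every control. HSPH1 (0.82 ± 0.07) and HSP90AB1 (0.51 ± 0.03) followed, and the ring subunits rose by 0.24 to 0.44. Without the pairing 6 of the 17 passed.

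Other lists of the growth machinery had small medians, of 0.04 to 0.22, and 2 members of each passed as higher without the pairing. Proteasome subunits and activators gave 15 of 28 higher and none lower, led by PSME3 (0.47 ± 0.04), with 6 higher by DESeq2 and 6 without replicate 1. Nuclear transport genes gave 25 of 36 higher and 3 lower, led by the RAN exchange factor RCC1 (0.56 ± 0.05) and the importin IPO7 (0.50 ± 0.04), while the exportin XPO1 fell (−0.31 ± 0.05). Without replicate 1, 1 of them was lower. Enzymes of nucleotide and polyamine synthesis gave 11 of 24 higher and 1 lower, 6 higher without replicate 1, 7 by DESeq2 and 7 with upper-quartile scaling. ODC1, which makes the first polyamine and is a known MYC target, rose from 71.8, 90.8 and 79.5 CPM to 125, 149.8 and 121 CPM (0.71 ± 0.05). Of 19 aminoacyl-tRNA synthetases 7 rose and 3 fell, with a median of 0.04.

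**Figure D4:**
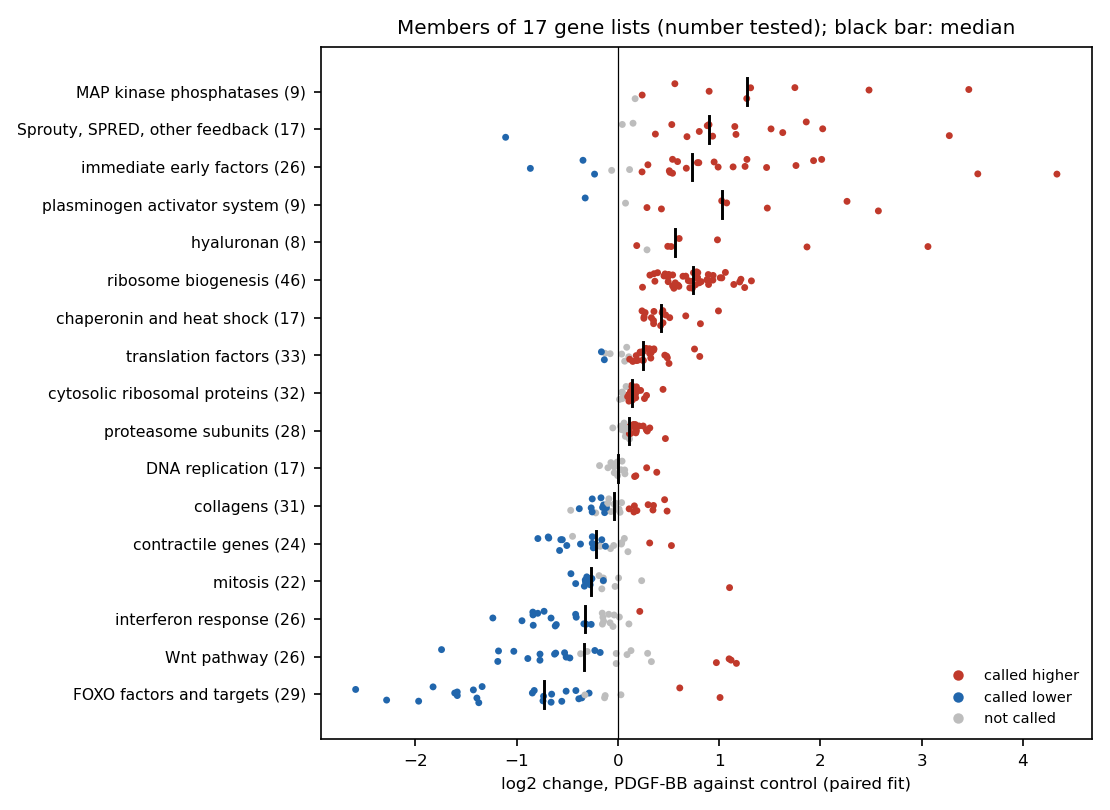
Log2 change with PDGF-BB (x axis) of each tested member of 17 gene lists, with red points called higher, blue points called lower, grey points not called and a black bar at the list's median. Medians run from 1.27 for MAP kinase phosphatases to −0.73 for FOXO factors and targets, and ribosome biogenesis stands apart from cytosolic ribosomal proteins by its larger changes (medians 0.74 and 0.14).

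Cyclins, CDKs and their inhibitors had no common direction, with 8 of 25 tested genes higher (5 without replicate 1) and 11 lower. These are 32% and 44%, against 25.6% and 23.8% of all genes tested. CCND1, cyclin D1, which drives entry into the cell cycle, rose from 206, 240.1 and 244 CPM to 424, 471 and 412 CPM (0.92 ± 0.05, adjusted p = 3.8e-07), without overlap. Its partner CDK6 rose by 0.55 ± 0.05 and CCND2 by 0.53 ± 0.04. The CDK inhibitors CDKN2B (−0.84 ± 0.08), CDKN2D (−0.62 ± 0.09), CDKN2C (−0.47 ± 0.06) and CDKN1A (−0.45 ± 0.05) fell, as CDKN1B did, while CDKN2A (−0.01 ± 0.11) did not pass. CDK4 (−0.01 ± 0.05) and CCND3 (0.02 ± 0.04) did not pass. CCND1, CDKN2B and CDKN1B passed without the pairing, and CDK6, CCND2 and CDKN1A did not (adjusted p = 0.058 to 0.32).

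Genes of DNA replication were near control: 4 of 17 rose (23.5%, against 25.6% of all genes tested) and none fell, with a median of −0.0016. The count of higher genes was 1 without replicate 1, by DESeq2 or with upper-quartile scaling. It was 2 without replicate 2, in a fit of all 12 libraries or with RLE scaling. The largest change was that of TIPIN (0.39 ± 0.07), and MCM2, a subunit of the replicative helicase, read 93.0, 130.5 and 77.9 CPM and 97.6, 131 and 68.0 CPM (−0.04 ± 0.05). Mitosis genes were slightly lower, with 14 of 22 down, 1 up and a median of −0.27. BUB1B, a spindle checkpoint kinase, read 40.8, 58.6 and 14.2 CPM in control and 30.3, 48.2 and 7.63 CPM with PDGF-BB (−0.46 ± 0.09). That fall was smaller than the spread between replicate numbers, and no mitosis gene passed as lower without the pairing, while 5 did without replicate 1. PLK3, an early-response kinase grouped with them by name, rose from 36.6, 31.4 and 45.7 CPM to 81.0, 77.9 and 83.0 CPM (1.10 ± 0.07).

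Contractile genes were lower in 14 of 24 tested members and higher in 2, with a median of −0.21, and no member moved 2-fold. SMTN, smoothelin, went from 438, 403 and 538 CPM to 302, 246 and 310.0 CPM, 1.60-fold lower and without overlap (−0.68 ± 0.05, adjusted p = 1.6e-06). SYNPO2, which bundles actin, fell from 214, 195 and 504 CPM to 122, 109 and 304 CPM (−0.79 ± 0.04), as did LMOD1, an actin nucleator of smooth muscle (−0.69 ± 0.06). For both, all 3 pairs fell while the groups overlapped. MYH11 fell from the control values above to 947, 259.8 and 1360.1 CPM (−0.50 ± 0.06, adjusted p = 1.1e-04). ACTA2 read 16480.0, 6855 and 16477 CPM with PDGF-BB and did not pass (−0.04 ± 0.05, adjusted p = 0.53), nor did CNN1, calponin (−0.07 ± 0.05, adjusted p = 0.27). Without replicate 1 these last 2 did pass as lower (adjusted p = 0.028 and 0.020). TAGLN, usually abundant in smooth muscle, read 3.93 to 7.21 CPM (0.06 ± 0.12), a level that makes its counting here uncertain. DES, desmin, rose (0.53 ± 0.07). SMTN was the member that passed without the pairing (adjusted p = 0.045), and MYH11 (0.80), SYNPO2 (0.48) and LMOD1 (0.30) did not.

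Regulators of the contractile state were split. MYOCD, the coactivator that turns contractile genes on with SRF, fell from 5.39, 4.25 and 7.44 CPM to 3.59, 3.21 and 4.55 CPM (−0.57 ± 0.12, adjusted p = 0.0032), with overlapping groups. ELK3 (0.80 ± 0.06) and ELK4 (0.90 ± 0.10), which compete with it for SRF, rose. The mesenchymal homeobox factor PRRX1 fell from 326, 302 and 300.1 CPM to 195, 203 and 201 CPM (−0.63 ± 0.04), and TCF21, a factor of disease-associated smooth muscle and fibroblasts, rose by 0.94 ± 0.07. In this list 8 of 26 rose and 10 fell, and SRF, ELK3 and PRRX1 passed without the pairing (adjusted p = 0.24 for MYOCD).

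Cytoskeletal genes outside the contractile list rose more often than they fell, with 14 of 27 higher and 4 lower (8 lower with upper-quartile scaling). ACTG1, a cytoplasmic actin, rose from 7208, 7283 and 7434 CPM to 10775, 9848 and 10841 CPM (0.52 ± 0.04), and the focal adhesion adaptor PXN, paxillin, by 0.54 ± 0.04. FLNC, a filamin of muscle, more than doubled in each pair, from 891, 330.2 and 1055 CPM to 2201, 778 and 2322 CPM (1.23 ± 0.04, adjusted p = 1.1e-08). Replicate 2 was far lower in both groups, and FLNC did not pass without the pairing (adjusted p = 0.26).

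The receptors for PDGF-BB did not pass at this time. PDGFRB read 902, 442 and 889 CPM in control and 873, 433 and 838 CPM with PDGF-BB (−0.05 ± 0.03, adjusted p = 0.21). PDGFRA read 26.0, 114 and 9.19 CPM with PDGF-BB (−0.16 ± 0.07, adjusted p = 0.063), and its replicates differed by over 10-fold within each group. With upper-quartile scaling both were called lower. PDGFRA was also called lower with RLE scaling, with limma-voom, with a stricter filter and without replicate 3 (adjusted p = 0.0024). A small fall thus depends on the processing. PDGFB, the chain given to the cells, read 4.82, 17.5 and 13.6 CPM and 6.45, 11.6 and 14.3 CPM (−0.12 ± 0.15, adjusted p = 0.53). PDGFA rose in each pair, from 32.7, 24.1 and 38.6 CPM to 60.9, 50.5 and 56.4 CPM (0.83 ± 0.08, adjusted p = 1.8e-05), and passed narrowly without the pairing. PDGFC (−0.39 ± 0.07), PDGFD (−0.42 ± 0.05) and the receptor-like PDGFRL (−0.36 ± 0.09) fell slightly with the pairing alone.

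The BMP and TGF-beta pathway held large changes in both directions, with 15 of 43 tested genes higher and 18 lower. On the receptor and effector side, SMAD6, an inhibitory SMAD induced by BMP, fell from 60.7, 37.6 and 50.4 CPM to 18.9, 16.1 and 14.7 CPM (−1.56 ± 0.09, adjusted p = 5.8e-07). ID2, a BMP target that blocks basic helix-loop-helix factors, fell from 82.3, 47.4 and 78.4 CPM to 39.8, 18.9 and 37.8 CPM (−1.13 ± 0.06), and so did ID3 (−0.54 ± 0.05) and the BMP effector SMAD1 (−0.67 ± 0.07). ATOH8, described above, is also known as a BMP target. Secreted antagonists rose: GREM1 rose from 34.6, 87.3 and 66.8 CPM to 113, 230.3 and 205 CPM (1.57 ± 0.06), FST, follistatin, by 1.82 ± 0.14 and NOG, noggin, by 1.22 ± 0.19. The ligand BMP2 rose from 0.486, 1.05 and 1.70 CPM to 1.80, 2.33 and 4.74 CPM (1.44 ± 0.20). SMURF2 (0.74 ± 0.05), which degrades SMADs, and the repressor TGIF1 (0.93 ± 0.05) rose as well. SMAD6, SMAD1, ATOH8, NOG, SMURF2 and TGIF1 passed without the pairing, and ID2, GREM1, FST and BMP2 did not (adjusted p = 0.078 to 0.41).

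Wnt pathway genes were lower in 14 of 26 tested members and higher in 4, with a median of −0.33. The receptor FZD2 fell from 32.8, 21.2 and 22.3 CPM to 9.31, 7.28 and 6.07 CPM (−1.74 ± 0.08, adjusted p = 1.6e-07). LGR4, which binds R-spondins, fell (−1.03 ± 0.12), and the nuclear effector TCF7L2 went from 24.8, 19.8 and 22.6 CPM to 10.5, 9.73 and 9.32 CPM (−1.18 ± 0.08). A related effector, TCF7, rose (1.17 ± 0.06), as did the receptor FZD5 (1.12 ± 0.12). These 5 genes passed both ways. In the Notch pathway 2 of 11 tested genes rose and 2 fell (1 and 4 without replicate 2). Each is 18.2%, against 25.6% and 23.8% of all genes tested. The ligand JAG1 went from 679, 248 and 713 CPM to 256, 96.9 and 264 CPM, a fall in each pair (−1.40 ± 0.04, adjusted p = 3.1e-09). Replicate 2 was low in both groups, and JAG1 did not pass without the pairing (adjusted p = 0.18). The receptor NOTCH3 fell by less (−0.33 ± 0.05), and the target HES1 rose (0.78 ± 0.08), both with the pairing alone.

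Guidance cues and their receptors gave 9 higher and 17 lower of 33 (10 lower without replicate 1, 11 by DESeq2). SEMA7A, a membrane-anchored semaphorin that binds integrins, rose from 2.11, 7.20 and 4.57 CPM to 36.8, 80.0 and 35.7 CPM (3.47 ± 0.14, adjusted p = 4.3e-08). NRP1, a coreceptor of VEGF and semaphorins, rose by 1.15 ± 0.04 and the receptor EPHA2 by 1.10 ± 0.06, while EPHB3 fell (−1.02 ± 0.07). All 4 passed without the pairing.

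Receptors for vasoactive ligands changed in both directions. The endothelin receptor EDNRA fell from 18.1, 9.20 and 25.3 CPM to 7.63, 3.31 and 15.5 CPM (−1.06 ± 0.13), as did AGTR1, for angiotensin (−0.66 ± 0.08). NPR3, which clears natriuretic peptides, fell from 34.9, 34.7 and 51.6 CPM to 18.8, 16.4 and 23.3 CPM (−1.04 ± 0.06). BDKRB2, for bradykinin, rose from 2.11, 3.94 and 4.19 CPM to 11.4, 22.1 and 14.5 CPM (2.24 ± 0.13), S1PR2, for sphingosine 1-phosphate, by 1.19 ± 0.05 and P2RY2, for extracellular nucleotides, by 1.45 ± 0.07. Of 26 receptors and RGS proteins tested 12 rose and 6 fell. GHSR, NPR3, RGS4, BDKRB2 and S1PR2 passed without the pairing, and EDNRA, AGTR1 and P2RY2 did not (adjusted p = 0.15 to 0.41). Among ion channels ITPR3, an IP3 receptor that releases stored calcium, rose from 26.7, 26.3 and 23.7 CPM to 59.8, 74.1 and 59.2 CPM (1.33 ± 0.06) and passed both ways.

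Single metabolic genes had large changes while their lists had medians near 0. EGLN3, an oxygen-sensing prolyl hydroxylase, rose from 33.8, 39.8 and 50.8 CPM to 169, 131 and 255 CPM (2.12 ± 0.10, adjusted p = 1.5e-07), and HK2, the inducible hexokinase, from 47.1, 69.3 and 49.6 CPM to 135, 110.0 and 122 CPM (1.15 ± 0.12). Of 28 glycolysis and hypoxia genes 9 rose and 7 fell (32.1% and 25%, against 25.6% and 23.8% of all genes tested). The median was 0.06, and 4 were lower without replicate 1 or replicate 3, and 4 by DESeq2. Fatty acid synthase FASN rose from 281, 388 and 323 CPM to 508, 636 and 558 CPM (0.79 ± 0.04). MYLIP, a sterol-regulated ubiquitin ligase, fell (−1.25 ± 0.09). Sterol and fatty acid genes gave 12 of 27 higher and 5 lower, with a median of 0.08. MFSD2A, a lysophospholipid transporter, rose from 4.94, 11.9 and 5.28 CPM to 70.7, 99.8 and 66.7 CPM (3.44 ± 0.12). SLC40A1 (ENSSSCG00000027157, chr15:94140635-94161793), ferroportin, the exporter of iron, fell from 285, 319 and 199 CPM to 58.6, 91.6 and 44.3 CPM, 4.21-fold lower (−2.07 ± 0.08, adjusted p = 3.2e-08). The metabolic and transport genes named so far passed without the pairing as well. ULK1, a kinase that starts autophagy, fell from 113, 117 and 126 CPM to 55.3, 58.4 and 63.7 CPM (−1.01 ± 0.04).

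Interferon-response genes were lower in 15 of 26 tested members and higher in 1 (3 higher without replicate 3), with a median of −0.32. IRF1, a transcription factor of the response, fell from 33.7, 32.4 and 30.2 CPM to 19.8, 21.9 and 14.3 CPM (−0.79 ± 0.09, adjusted p = 4.1e-05), as did IRF2 (−0.61 ± 0.08), and these 2 passed without the pairing. The member that rose was IRF3 (0.22 ± 0.05, not called without replicate 1, adjusted p = 0.051). IFIH1, a sensor of viral RNA, read 12.2, 9.10 and 19.3 CPM in control and 7.92, 5.01 and 9.68 CPM with PDGF-BB (−0.84 ± 0.10, adjusted p = 0.22 without the pairing). Clock genes gave 5 of 17 higher (2 without replicate 1, 2 by DESeq2) and 6 lower. These are 29.4% and 35.3%, against 25.6% and 23.8% of all genes tested. The heme-sensing repressor NR1D2 fell from 77.5, 84.1 and 83.0 CPM to 39.9, 52.3 and 46.2 CPM (−0.83 ± 0.06). CEBPD, a factor of inflammation and adipogenesis, fell in each pair from 66.7, 126 and 46.1 CPM to 14.6, 31.4 and 15.8 CPM (−1.92 ± 0.09, adjusted p = 1.7e-07), though not without the pairing (adjusted p = 0.063).

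Abundant matrix genes changed by small factors. COL1A1, the gene with the highest mean CPM in control, read 37850.0, 21926 and 33496 CPM in control and 35827, 19645 and 30148 CPM with PDGF-BB (−0.13 ± 0.04), and its call was lost without replicate 3 (adjusted p = 0.16). COL3A1 fell without overlap, from 15145, 14967 and 14510.0 CPM to 12810.0, 11737 and 12666 CPM (−0.26 ± 0.04). Of 31 collagens and collagen-processing genes 9 rose and 10 fell (29% and 32.3%, against 25.6% and 23.8% of all genes tested). Their median was −0.04, and none passed without the pairing. THBS1, thrombospondin 1, rose from 17584, 35293 and 19328 CPM to 27664, 35009 and 27277 CPM (0.38 ± 0.10). Its replicate 2 pair did not move, and without replicate 1 it did not pass (adjusted p = 0.15). TNC, tenascin C, of remodelling matrix, rose by 0.54 ± 0.04 and SPP1, osteopontin, by 0.72 ± 0.08. In CPM the largest losses were those of COL1A1, COL3A1 and COL1A2 (−0.14 ± 0.04, not called without replicate 3, adjusted p = 0.11). THBS1 and ACTG1 were among the 8 largest gains.

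The 3 pairs agreed closely for some genes and not for others. Across the 10577 genes with a mean of at least 1 log2 CPM, paired log2 ratios correlated at 0.841 to 0.880 between pairs of libraries, as a description over genes that share library depth. Called with a change of 2-fold or more were 322 genes at that level, of which, among those with a symbol, DYRK1B, TUFT1, ULK1, GJC1 and GDF15 had the smallest SD over the 3 pairs. DYRK1B, a kinase of quiescent cells, changed by −1.72, −1.72 and −1.73 in pairs 1 to 3, from 16.1, 14.8 and 17.4 CPM to 4.82, 4.46 and 5.20 CPM. The gap junction gene GJC1 rose by 1.15, 1.13 and 1.11. The largest SDs were those of DIO2, ADAMTS1, BCL6B, SLITRK2 and HAS2. DIO2, which activates thyroid hormone, rose from 0.689, 3.23 and 0.801 CPM to 6.82, 8.13 and 6.20 CPM, least in replicate 2, where its control was highest (2.16 ± 0.29, and 3.12 without replicate 2). ADAMTS1 changed by 1.17 ± 0.26, by 0.54 without replicate 2 and did not pass without replicate 1 (adjusted p = 0.065), and SLITRK2 rose by 1.16 ± 0.20 and by 1.80 without replicate 2. BCL6B, a transcriptional repressor, rose by 2.03, 2.97 and 1.14. Its fitted change was 2.69 ± 0.24 and 1.61 without replicate 2. Of the 211 rising genes in this set, the smallest of the 3 responses was in replicate 2 for 129, in replicate 3 for 48 and in replicate 1 for 34, and for the 111 falling genes the numbers were 49, 36 and 26.

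Some genes were close to off in one group. Among genes with a symbol, 22 had under 10 reads in all control libraries and at least 10 in all PDGF-BB libraries. The reverse held for 8. These read counts are not scaled for depth, and the PDGF-BB library was the deeper one in each pair, which favours the 22. EGR3 had the highest mean level among the 22. SLC30A3, a zinc transporter, had 6, 1 and 7 reads in control and 47, 21 and 74 with PDGF-BB. KLHL38 had 27, 44 and 67 in control and 0, 5 and 9 with PDGF-BB, and TLR1, a toll-like receptor, 20, 29 and 27 and 9, 7 and 6. That the 3 pairs of such genes share a direction follows from how the genes were picked and is no added result. They met the count minimum only through the group where they were higher, and at these counts the size of the change was loosely set. Genes with no symbol are not in the 22 and 8. Of them, ENSSSCG00000034184 had 0, 0 and 1 reads in control and 21, 19 and 30 with PDGF-BB. ENSSSCG00000021941 had 24, 29 and 22 in control and 5, 6 and 8 with PDGF-BB. Just inside the count minimum lay 111 genes whose third-highest count was 10, with a median of 57 reads over the 6 libraries, and 87 genes just outside it had a third-highest count of 9 and a median of 53.

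The same contrast was measured in the 6 libraries with S100A4, none of which entered the paired fit above. Same-numbered libraries of all groups correlated at r = 0.741 to 0.904 after group means were taken off. The second set is therefore not an independent replication of the first. PDGF-BB with S100A4 changed 5455 of the 12173 genes against S100A4 alone, 44.8%. Of the 6021 genes called without S100A4, 4453 (74%) were called in the same direction, 9 in the opposite one, and 97.2% had the same sign, against 83.4% of all genes tested. Among the 486 with a change of 2-fold or more, 424 (87.2%) were called in the same direction and 1 in the opposite one. That gene was TNFAIP8L3 (1.07 ± 0.33 without S100A4 and −0.90 ± 0.29 with it), which read under 2 CPM in each of the 6 libraries, did not pass without replicate 2 (adjusted p = 0.42) and was named after its values were seen. RGS4 rose by 3.77 ± 0.13 there, DUSP5 by 3.41 ± 0.17, EGR1 by 2.00 ± 0.25 and PLAU by 2.01 ± 0.04. GHSR (−3.44 ± 0.17), BMF (−2.31 ± 0.13), FBXO32 (−2.22 ± 0.05) and CDKN1B (−1.17 ± 0.10) fell there too. Ribosome biogenesis genes rose in 43 of 46 with a median of 0.65, FOXO factors and targets fell in 23 of 29 with a median of −0.69, and contractile genes fell in 11 of 24 and rose in 6. Over all genes tested in that set 23.5% were higher and 21.4% lower, so the 6 contractile genes that rose lie near the share of all genes. Of the contractile genes named above SMTN changed by −0.38 ± 0.04, and LMOD1 (−0.60 ± 0.05) and MYH11 (−0.28 ± 0.04) fell. CNN1 (0.16 ± 0.04) and DES (0.58 ± 0.05) passed as higher, and ACTA2 (0.07 ± 0.03) did not pass. The regulator MYOCD changed by −0.13 ± 0.12, which did not pass. Over the 486 genes the slope of the effect with S100A4 on the effect without it was 0.85 and r across genes was 0.955, as a description.

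The difference between both effects passed for 13 genes, 0.107% of those tested, in edgeR's quasi-likelihood test of the interaction over 12 libraries, while 1182 genes had an unadjusted p under 0.05. The change was less positive or more negative with S100A4 in 11 of the 13. LIF rose by 3.61 ± 0.09 without S100A4 and by 2.26 ± 0.10 with it, a difference of −1.31 ± 0.20 (adjusted p = 0.030). BDKRB2 rose by 2.24 ± 0.13 and 1.16 ± 0.07 (difference −1.07 ± 0.15), CEMIP by 1.87 ± 0.05 and 1.16 ± 0.06 (−0.73 ± 0.11), and MAFF by 1.76 ± 0.05 and 1.20 ± 0.06 (−0.55 ± 0.09). For PTHLH, parathyroid hormone-like hormone, the sign turned. It rose from 7.21, 10.3 and 10.9 CPM to 11.8, 16.4 and 21.7 CPM without S100A4 (0.80 ± 0.09) and fell with it (−0.55 ± 0.07), a difference of −1.35 ± 0.11 (adjusted p = 1.5e-04). NEDD4L, PXYLP1, RELB, PMAIP1, WTAP and NAB1 also differed downwards, and TM4SF1 and IGFBP5 upwards. No gene passed without the pairing (144 at an unadjusted p under 0.05), 63 passed by DESeq2, and leaving out replicate 1, 2 or 3 gave 1, 117 and 2.

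**Figure D5:**
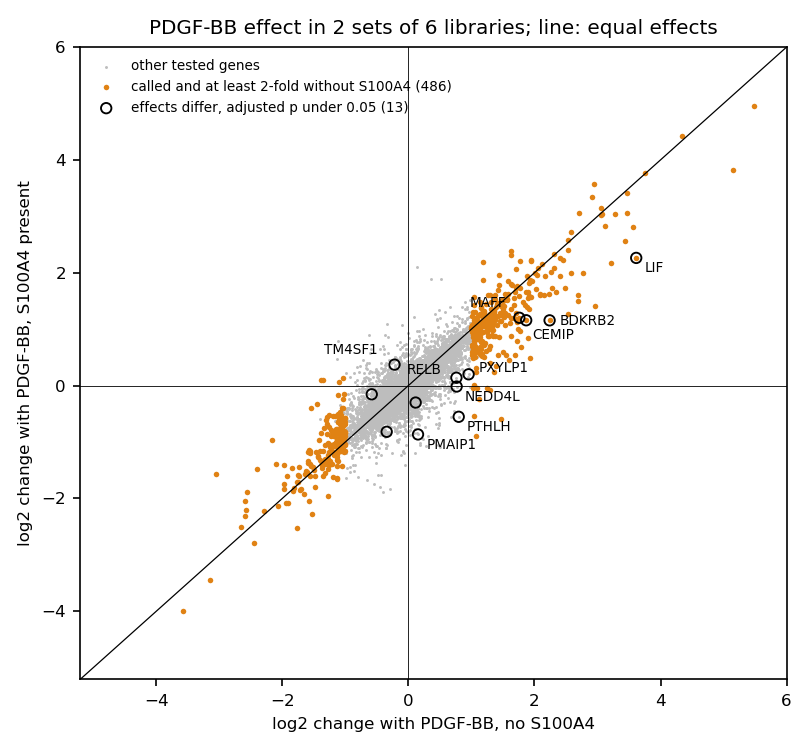
Log2 change with PDGF-BB without S100A4 (x axis) and with S100A4 (y axis) for the 12173 genes, each axis from its own 6 libraries; orange points are the 486 genes called with a change of 2-fold or more without S100A4, black rings the 13 genes whose effects differed, and the line marks equal effects. Orange points follow the line in both directions, with LIF, BDKRB2, CEMIP and MAFF below it.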

How the data were processed

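The deposited table holds read counts per gene, not normalized. Per the submitters' processing notes the authors used CASAVA 1.8.2, STAR 2.4, featureCounts 1.4.6 and build Sscrofa11.1. The sources used here do not state settings, annotation, strand use or multiple matches, so counts of overlapping, antisense or near-identical genes are uncertain. Symbols matched 14572 of 21153 identifiers, and coordinates are those of RefSeq for Sscrofa11.1.

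Genes with at least 10 counts in 3 of the 6 libraries were tested with edgeR 4.0.16 (R 4.3.3): TMM scaling, glmQLFit and glmQLFTest, two-sided, with replicate number as a block, and Benjamini-Hochberg over 12173 genes. SE is the size of the log2 change over the square root of F. No library was counted as a duplicate: the 12 pairs within groups had a chi-square per gene of 21.8 to 154. Alternatives included DESeq2 1.42.0 and limma 3.58.1 (voom). Tests were also run on simulated counts with replicate effects built in and few genes changed. That run cannot judge whether the pairing holds in these libraries.

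The comparison, the 58 gene lists and the naming rule were chosen with earlier results of these data known. The rule took the 12 largest changes per direction with a mean of at least 1 log2 CPM, the 8 largest CPM shifts, up to 4 members per list and direction by adjusted p, the 5 most and least even responses, near-off genes, genes without a symbol and a fixed set (such as PDGFRA, ACTA2 and FOS). List members and interaction genes named beyond it were chosen after their values were seen.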

Additional observations from a re-analysis of the deposited data

Results flagged for a closer look

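The effect of PDGF-BB in the presence of S100A4 differed from that in its absence for 13 genes by the interaction term over 12 libraries. Among genes taken by the naming rule, the effect with S100A4 minus the effect without it was −1.31 for LIF, −1.08 for BDKRB2, −0.73 for CEMIP, −0.55 for MAFF and −0.47 for NAB1 on the log2 scale. LIF, BDKRB2, CEMIP and MAFF rose in both sets and by less with S100A4. NAB1 fell in both sets and by more with S100A4 (−0.34 ± 0.05 without and −0.82 ± 0.05 with it). The other 8, chosen after their values were seen, were PTHLH (−1.35 ± 0.11), PMAIP1 (−0.999), NEDD4L (−0.77 ± 0.12), PXYLP1 (−0.75 ± 0.12), RELB (−0.61 ± 0.10), WTAP (−0.41 ± 0.07), TM4SF1 (0.60 ± 0.09) and IGFBP5 (0.43 ± 0.07). RELB and LIF, which the NF-kB and IL6 lists hold, rose by 0.76 ± 0.07 and 3.61 ± 0.09 without S100A4.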

How the results depend on the processing

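Against 6021 changed genes (3118 higher, 2903 lower), the fit with no replicate block called 1056 (706 and 350), a fit of all 12 libraries without the block 1851 (1137 and 714), DESeq2 4004 (2069 and 1935) and a test against a log2 change of 0.5 called 899 (561 and 338). Leaving out 1 replicate gave 3827 to 5745 changed genes (1991 to 2892 higher, 1836 to 2876 lower), fewest without replicate 1. Other scalings and filters, limma-voom, thinning to the lowest library total (added after seeing the data) and all 12 libraries with the block gave 5437 to 6217. Of these, 39.7% (upper-quartile, 2467 higher and 3750 lower), 48.5% (RLE scaling) and 49.6% (12 libraries) to 52.4% were higher. With S100A4 present, 5455 genes became 988 with no replicate block and 3391 to 5548 without 1 replicate. The 13 differing effects became 0 with no replicate block, 63 by DESeq2 and 1 to 117 without 1 replicate. The cause was not tested. No result changed direction past the threshold. At 21.5 to 32.4 reads per CPM before scaling for composition, genes under about 1 CPM rest on few reads.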
